A study of Mus musculus with 2 samples.

Results

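The genes described here are the long intergenic noncoding RNA (lincRNA) genes that carry only a placeholder name in the mouse annotation. A gene was a member when at least 1 of its transcripts had the lincRNA biotype and its symbol was Gm followed by digits, or ended in Rik. Gm26917 and Gm42418 were left out. This gave 5457 of 55536 annotated genes (9.83%), 4298 with a Gm name and 1159 with a Rik name. By gene type, 5294 members were lincRNA, 158 were processed transcripts and 5 were protein-coding.

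They were measured in total RNA of the left cerebral cortex, taken from females at postnatal day 4. The mice, labelled B6CASTF1/J, were the first generation of a cross between C57BL/6J and CAST/EiJ. The series has 1 group of 2 libraries, each made from 300 ng of RNA with ERCC spike-in RNAs, so no condition was contrasted. The libraries carry separate biological replicate numbers and are assigned to different females, but the labels give both the same donor record, and the spread between them may include little variation between animals.

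Placeholder names of the Gm kind come from automated gene models, and Rik names come from the full-length cDNA clones of the RIKEN collection. LincRNAs are spliced, capped and polyadenylated like messenger RNAs but have no long conserved reading frame. In brain they include hosts from which miRNAs are cut, transcripts that start beside a coding gene on the other strand, and cytoplasmic RNAs that bind proteins or miRNAs. Many lincRNA genes are transcribed at low levels and in few cell types. In bulk tissue, fewer cells that express a gene and less RNA per cell cannot be told apart.

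A placeholder name did not always mean an unstudied gene. RefSeq held an overlapping entry for 2581 members, 2561 by symbol and 20 by an older synonym, and gave 16 of these another name. Of the 16, 8 were detected, and 5 stood among the 20 most abundant members. 2900097C17Rik is listed there as Norad, an RNA known to bind Pumilio proteins. 1700020I14Rik is Oip5os1, also called Cyrano, which is known for directing the decay of miR-7. C230004F18Rik is Cdr1os, the transcript from which the circular RNA of the Cdr1 locus arises. 3110039I08Rik is Mir100hg, a miRNA host, and 1810026B05Rik is Chaserr, which lies beside Chd2 and is known to restrain it. These identities were looked up after the levels were seen.

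Mature miRNAs held in the leading members are shown because they identify the hosts. The sequences are RefSeq's on GRCm38.p6, written from the 5′ end with the seed, bases 2 to 8, in capitals. The first is encoded in both Gm3764 (as Mir9-1, chr3:88215613-88215635, plus strand) and C130071C03Rik (as Mir9-2, chr13:83738821-83738843, plus strand). The next pair comes from 3110039I08Rik on the plus strand of chromosome 9, the fourth from Gm26871 on chromosome 3, and the last pair, which share a seed, from Gm4258 on chromosome 1.
miR-9-5p: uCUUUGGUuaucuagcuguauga
miR-100-5p: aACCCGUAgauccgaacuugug
miR-125b-5p: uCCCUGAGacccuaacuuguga
miR-137-3p: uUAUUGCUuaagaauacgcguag
miR-181a-5p: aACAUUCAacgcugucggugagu
miR-181b-5p: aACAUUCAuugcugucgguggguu

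Promoters of 4 abundant members are shown because they differ in CpG content, which is described further on. Other abundant members had ratios outside those of the 4. Each runs from 250 bases before to 50 after the RefSeq start, from RefSeq on GRCm38.p6, in the direction of transcription, with CG in capitals. They are 1700020I14Rik (chr2:119594046-119594345, plus strand), 1110038B12Rik (chr17:34952419-34952718, minus strand), C130071C03Rik (chr13:83721131-83721430, plus strand) and Gm17750 (chr13:84064725-84065024, minus strand).
1700020I14Rik: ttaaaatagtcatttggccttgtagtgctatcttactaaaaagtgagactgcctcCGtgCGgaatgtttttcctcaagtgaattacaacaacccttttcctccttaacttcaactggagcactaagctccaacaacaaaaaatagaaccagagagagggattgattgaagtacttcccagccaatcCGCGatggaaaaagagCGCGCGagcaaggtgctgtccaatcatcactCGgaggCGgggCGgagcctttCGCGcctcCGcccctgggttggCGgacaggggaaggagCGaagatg
1110038B12Rik: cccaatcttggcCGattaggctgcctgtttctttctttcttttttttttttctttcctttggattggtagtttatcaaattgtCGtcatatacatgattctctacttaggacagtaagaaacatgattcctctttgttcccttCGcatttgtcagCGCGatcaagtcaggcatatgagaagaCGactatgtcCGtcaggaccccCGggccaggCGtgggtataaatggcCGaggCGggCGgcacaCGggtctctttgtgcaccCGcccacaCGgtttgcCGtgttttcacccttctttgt
C130071C03Rik: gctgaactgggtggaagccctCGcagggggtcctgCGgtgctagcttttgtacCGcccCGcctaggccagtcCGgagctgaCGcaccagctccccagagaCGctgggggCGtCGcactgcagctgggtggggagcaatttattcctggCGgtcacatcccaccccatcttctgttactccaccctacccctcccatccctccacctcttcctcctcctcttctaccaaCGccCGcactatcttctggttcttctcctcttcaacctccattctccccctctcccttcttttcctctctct
Gm17750: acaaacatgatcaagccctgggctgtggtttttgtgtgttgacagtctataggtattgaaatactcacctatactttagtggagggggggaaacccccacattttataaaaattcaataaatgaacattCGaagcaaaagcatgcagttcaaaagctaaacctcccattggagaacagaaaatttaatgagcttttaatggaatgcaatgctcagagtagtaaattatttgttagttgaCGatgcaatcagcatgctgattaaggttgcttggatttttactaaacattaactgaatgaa

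Most members gave no reads. Levels are TPM, transcript abundances in which counts are divided by effective length and scaled to a fixed sum, from the authors' gene tables unless another table is named, and are given as mean ± SD (n = 2) where no library is named. In both libraries 3348 members (61.4%) had 0 counts, and 1332 had counts in both. A count of 0 allows up to 3 counts, which for the members at 0 is a median of 0.254 TPM in replicate 1 and 0.267 TPM in replicate 2. For 131 and 142 of them 3 counts would reach 1 TPM, so those could not be shown to lie under that level. Mean TPM was under 0.1 for 4341 members, from 0.1 to under 1 for 814, from 1 to under 10 for 263, from 10 to under 100 for 34 and at least 100 for 5.

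With detection set at 1 TPM or more in each library, 266 members were detected (4.87%), against 27.6% of all annotated genes. Rik genes were detected more often (105, or 9.06%) than Gm genes (161, or 3.75%). The same threshold held for 73 of 599 named lincRNA genes (12.2%), for 478 of 3219 TEC genes (14.8%) and for 13124 of 22010 nuclear protein-coding genes (59.6%). TEC genes are single-exon loci that await experimental testing. The median level of the detected members was 2.97 TPM, below the 8.41 TPM of detected named lincRNA genes and the 17.1 TPM of detected coding genes. Just outside the threshold, Gm26660 was at 0.99 and 1.32 TPM in replicates 1 and 2 and Gm10863 at 1.00 and 0.99 TPM, and just inside it Gm4211 was at 1.00 and 1.07 TPM.

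**Figure D1:**
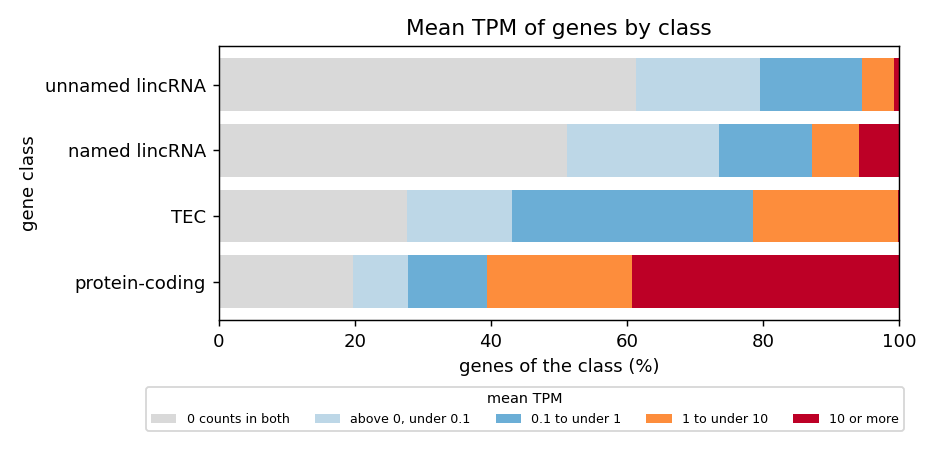
Share of the genes of each class (horizontal axis, %) by mean TPM over the 2 libraries, with 1 bar for each of the 4 gene classes. The grey part, genes at 0 counts in both libraries, takes 61.4% of the unnamed lincRNA bar and 19.8% of the protein-coding bar.

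The animals were labelled female. Xist, which is transcribed from the inactive X chromosome of female cells, was at 120 TPM (replicate 1) and 158 TPM (replicate 2). The Y chromosome holds 550 members, which had 0 counts in both libraries in the first table, while 8 of them had a TPM above 0 in the second table (summed to 0.682 and 1.17 TPM). Most members of other chromosomes were not detected either, so these zeros do not check the label. Of the other 4907 members, 5.42% were detected. The marker genes of cortical excitatory neurons were all detected (8 of 8, with summed levels of 704 and 720 TPM in replicates 1 and 2). Libraries differed in markers of other tissue. The choroid plexus and ependyma list summed to 217 TPM in replicate 1 and 6.51 TPM in replicate 2 (2 of 4 detected, none at 0), and the blood list to 457 and 58.5 TPM (3 of 4 detected, none at 0). Gene counts summed to 29310533 and 28844674.

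Members held a small share of the counts, and few genes held most of it. Their share was 0.375% in replicate 1 (exact 95% Clopper-Pearson interval 0.373 to 0.378) and 0.416% in replicate 2 (0.413 to 0.418). These intervals cover counting error only. 2900097C17Rik alone held 22.6% and 20.1% of the members' counts, and the 6 most abundant members together 55.8% and 53.0%. In TPM, which does not favour long transcripts, the 20 most abundant members held 50.1% and 49.0% of the members' sum.

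2900097C17Rik (Norad, ENSMUSG00000102869.2, chromosome 2, 156388065 to 156392979, minus strand) was the most abundant member. It was at 281 TPM (replicate 1) and 279 TPM (replicate 2), from 24925 and 24060 counts. It has a single exon of 4915 bases. The libraries were nearly equal.

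1700020I14Rik (Oip5os1, ENSMUSG00000085438.1, chromosome 2, 119594297 to 119607502, plus strand), which has 3 exons, was at 131 TPM and 135 TPM in replicates 1 and 2. C230004F18Rik (Cdr1os, ENSMUSG00000071753.12, X chromosome, 61116378 to 61292484, plus strand) was at 148 and 156 TPM. It runs across Cdr1, which is annotated as protein-coding on the minus strand and was listed at 0 in both libraries. Its dominant transcript matches Cdr1 on the other strand over 1554 bases (46.3% of the transcript). Reads of the circular RNA of this locus and of the linear transcript were not separated, so the level may include both. 1700020I14Rik and C230004F18Rik differed little between the libraries. Whether counting used the strand of reads is not given in the sources used here and was not tested. Reads of a gene and of one that overlaps it on the other strand may therefore not have been separated. For C230004F18Rik the posterior SD of the count, by which the quantifier expresses the sharing of reads between genes, was 0 in both libraries.

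Gm3764 (ENSMUSG00000097156.7, chromosome 3, 88206813 to 88229959, plus strand) contains Mir9-1 and Mir3093. It was at 173 TPM (replicate 1) and 249 TPM (replicate 2). 3110039I08Rik (Mir100hg, ENSMUSG00000074415.14, chromosome 9, 41327077 to 41716994, plus strand) contains Mir100, Mirlet7a-2 and Mir125b-1 and was at 85.2 and 124 TPM. Gm26871 (ENSMUSG00000097311.7, chromosome 3, 118430324 to 118530022, plus strand) contains Mir137 and was at 35.0 and 51.0 TPM. All 3 hosts were higher in replicate 2. The ratio of scaled counts, replicate 2 over replicate 1, was 1.36 for Gm3764 (95% interval 1.29 to 1.43), 1.41 for 3110039I08Rik (1.35 to 1.47) and 1.45 for Gm26871 (1.32 to 1.60), so the differences exceeded counting error but were under the 2-fold size used for a call. Gm9916, a single-exon gene inside the span of Gm26871 on the same strand, was at 16.6 and 23.8 TPM.

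C130071C03Rik (ENSMUSG00000050334.12, chromosome 13, 83721381 to 83884194, plus strand) contains Mir9-2 and thus encodes the same mature miRNA as Gm3764. It was at 63.8 and 74.2 TPM. Its start lies 217347 bases from that of Mef2c, a transcription factor gene of cortical neurons, on the same strand, and Mef2c was at 550 ± 8.06 TPM. Gm17750 (chromosome 13, 84025297 to 84064772, minus strand), further along the chromosome, was at 27.7 and 27.8 TPM. The miR-9 sequence is therefore carried by 2 members whose levels differed, with Gm3764 above C130071C03Rik in both libraries.

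Annotated miRNA genes lay on the same strand inside 54 members, and 18 of these (33.3%) were detected, against 27.6% of all annotated genes. The 13 hosts below the leading ones, named after their values were seen, ranged from 1.96 TPM for 4833445I07Rik (Mir191 and Mir425) to 17.6 TPM for Gm27000 (Mir1906-2) in the mean. Gm4258 (chromosome 1, 137898595 to 138000384, plus strand), which contains Mir181a-1 and Mir181b-1, was at 7.94 TPM (replicate 1) and 11.6 TPM (replicate 2). A330023F24Rik, with Mir29b-2 and Mir29c, was at 5.62 and 9.92 TPM. In 17 of the 18 hosts replicate 2 was the higher library, with a median log2 ratio of 0.41 on the log2(TPM + 1) scale. Among the 248 detected members with no miRNA gene, 175 were higher in replicate 2, and the median was 0.12.

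**Figure D2:**
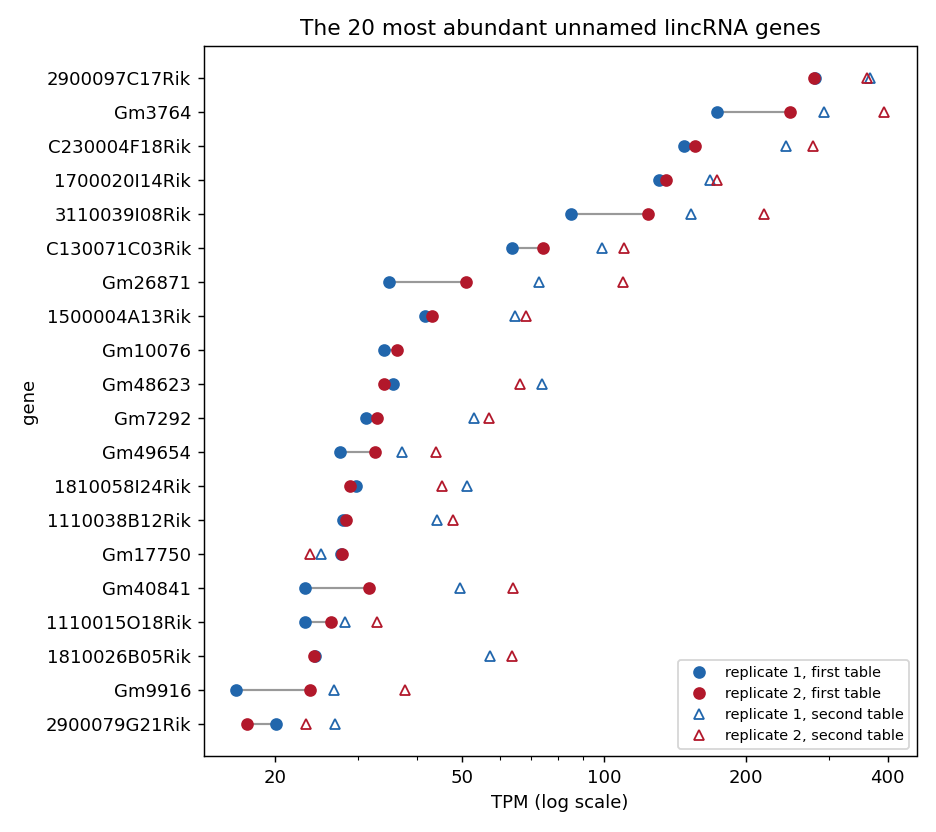
TPM (log scale) of the 20 most abundant unnamed lincRNA genes in replicate 1 (blue) and replicate 2 (red), from the first table (filled circles, joined by a line) and the second table (open triangles). The miRNA hosts Gm3764, 3110039I08Rik and Gm26871 have wide lines with replicate 2 on the right, while 2900097C17Rik and 1110038B12Rik have overlapping circles, and Gm10076 has no triangle because the second table lists it at 0.

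Other abundant members without a miRNA gene were close between the libraries. 1110038B12Rik (chromosome 17, 34950238 to 34952471, minus strand) was at 27.9 TPM (replicate 1) and 28.4 TPM (replicate 2). 1810058I24Rik (chromosome 6, 35252654 to 35263496, plus strand), which RefSeq lists as protein-coding and which is known to encode a short mitochondrial protein, was at 29.8 and 28.8 TPM. Gm48623 (chromosome 13, 54301959 to 54312797, plus strand) was at 35.7 and 34.0 TPM. Gm49654 (chromosome 12, 81717830 to 81720052, minus strand), a single exon, was at 27.5 and 32.6 TPM. Gm40841 (chromosome 13, 28394453 to 28420066, minus strand) was further apart, at 23.2 and 31.7 TPM. In the 20 most abundant members together, 15 were higher in replicate 2 and the median log2 ratio was 0.08.

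Beside the named long noncoding RNAs of brain, the leading members were abundant. A list of 24 symbols gave 23 annotated entries. Dlx6os1 had separate antisense and miscellaneous RNA entries, the latter at 3.29 and 0 TPM in replicates 1 and 2. Snhg11 and Tunar are annotated as protein-coding. Of the 23 entries Malat1, Meg3 and Rian, at 2505 ± 534, 1176 ± 278 and 855 ± 106 TPM, were above 2900097C17Rik and the others below it. The listed symbols Norad and Oip5os1 had no entry of that name because the annotation carries them as 2900097C17Rik and 1700020I14Rik. Miat, a nuclear RNA of neurons, was at 158 ± 37.9 TPM and Xist, which silences an X chromosome, at 139 ± 26.9 TPM, beside 152 ± 5.99 TPM for C230004F18Rik and 133 ± 2.80 TPM for 1700020I14Rik. Of the 23 entries, 18 were higher in replicate 2, with a median log2 ratio of 0.36.

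Some members are near copies of other transcripts, and their levels rest on how shared reads were split. Gm10076 (chromosome 14, 105681828 to 105682211, plus strand) was at 34.1 TPM (replicate 1) and 36.3 TPM (replicate 2). Its 383-base transcript aligned over its whole length with Rpl41, the gene of a ribosomal protein, at 99.5% identity with 2 substitutions, and Rpl41 was at 1450 ± 65.5 TPM. The second table listed Gm10076 at 0 in both libraries. Gm27000 (X chromosome, 88759471 to 88760312, minus strand), named here after its value was seen, aligned with Meg3 over all 842 bases with 1 substitution and was at 14.6 and 20.6 TPM. Gm49207 (chromosome 15, 7760714 to 7760992, plus strand) aligned over 268 bases with a retained-intron transcript of Ahsa1, a cochaperone gene, with 1 substitution. Stretches of 29 bases around 1 difference in each pair are shown from the GENCODE transcripts, with the base that differs in capitals, because so few bases tell the genes apart.
Gm10076: caagtaagccagccTgtgcacctacgacg
Rpl41: caagtaagccagccCgtgcacctacgacg
Gm27000: cttctggatgccaaAgctgctgctcgagt
Meg3: cttctggatgccaaGgctgctgctcgagt
Gm49207: ttggctatggtgcaTgcttgttttagggc
Ahsa1: ttggctatggtgcaCgcttgttttagggc

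Gm7292 (chromosome 6, 117716342 to 117718868, plus strand) was 99.2% identical to 2900097C17Rik over its whole length and was at 31.2 and 32.9 TPM, so the Norad level and that of Gm7292 depend on each other. Of the 31-base words of Gm7292, 86.6% also occurred in another gene, as did 44.7% of those of 2900097C17Rik. The posterior SD of the count, by which the quantifier expresses such sharing, was 0 in both libraries for 220 of the 266 detected members. It was over 10% of the count for 6 of them, including Gm27000 and Gm49207. For Gm27000 it was 41.3 of 210 counts in replicate 1 and 45.2 of 284 in replicate 2. For Gm49207 it was 9.81 of 37.6 and 7.77 of 17.5. For 2900097C17Rik it was 38.5 of 24925 and 40 of 24060, and for Gm7292 38.5 of 1090 and 40 of 1089.

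Detected members lay closer to coding genes than the others. The median distance from a member's start to the nearest protein-coding start was 22050 bases for detected members and 74248 bases for the rest. The rest include the 550 members on the Y chromosome. For named lincRNA genes the medians were 23824 bases when detected and 56494.5 when not. The nearest coding gene was itself detected for 80.5% of detected members and 66.4% of the rest. Within 5000 bases of a coding start on the opposite strand lay 81 detected members (30.5%) and 453 of the undetected members (8.73%). For named lincRNA genes these shares were 19.2% and 7.03%. Read the other way, 15.2% of the 534 members in that position were detected, against 3.76% of the other members and 27.6% of all genes. These shares describe genes, which are not replicates, and were not tested.

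In these pairs the coding gene was usually the more abundant partner. It was detected in 75 of the 81 pairs and was above the member in both libraries in 74, by a median log2 ratio of 2.78. Outside such pairs too, coding genes were the higher class, with medians of 17.1 TPM over all detected coding genes and 2.97 TPM over all detected members. 5031425E22Rik (chromosome 5, 23382308 to 23434269, minus strand) starts 172 bases from Kmt2e, a chromatin regulator gene, and was at 10.9 TPM (replicate 1) and 13.2 TPM (replicate 2), where Kmt2e was at 67.9 and 77.6 TPM. 5033430I15Rik (chromosome 13, 45965253 to 45966508, plus strand) starts 245 bases from Atxn1, the ataxin 1 gene, and was at 11.4 and 9.64 TPM against 47.8 and 45.4 TPM. Gm5113 (chromosome 7, 30169875 to 30182324, plus strand), 125 bases from the zinc finger gene Zfp146, was at 9.21 and 9.07 TPM against 31.9 and 33.2 TPM. In each of these pairs the partner was higher in both libraries.

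The other named pairs varied more. 1500004A13Rik (chromosome 3, 88782943 to 88832547, minus strand), which starts 2684 bases from Gon4l, a nuclear factor gene, was the exception in direction, at 41.6 and 43.2 TPM against 25.1 and 28.8 TPM. 2900079G21Rik (chromosome 9, 112234277 to 112348925, plus strand) was at 20.1 and 17.4 TPM. Its partner Arpp21, a gene for a phosphoprotein of forebrain neurons whose start lies 1661 bases away and which it overlaps, was at 149 and 228 TPM, so the member was the lower and its partner the higher in replicate 2. Gm10419 (chromosome 5, 108367769 to 108378239, plus strand) was at 9.49 and 14.4 TPM beside the coding gene Gm42517, 153 bases away, at 19.8 and 20.5 TPM. For pairs that overlap, the split of reads between strands was not tested.

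Other members lay inside or across coding genes. Of the detected members, 16 overlapped a coding gene on the same strand and 39 one on the other strand. 1810026B05Rik (Chaserr, chromosome 7, 73539203 to 73558395, minus strand) overlaps Chd2, a chromatin remodeller gene, on the same strand. It was at 24.4 TPM (replicate 1) and 24.2 TPM (replicate 2), next to 22.9 and 26.1 TPM for Chd2. How reads were divided between such members and the coding gene was not tested.

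Members beside transcription factor genes of the forebrain were looked for with a list of 74 factors, of which 70 were detected. A listed factor was the nearest coding gene of 124 members, and 11 of these were detected (8.87%), against 4.78% of the other members. The share was 5.74% for members nearest another detected coding gene and 2.89% for those nearest an undetected one. The 11 lay beside 9 factors.

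After C130071C03Rik beside Mef2c, the most abundant was 1110015O18Rik (chromosome 3, 4797558 to 4814911, plus strand), at 23.2 and 26.3 TPM. Its nearest coding gene, the homeobox gene Zfhx4, starts 420968 bases away and was at 6.67 ± 2.33 TPM, below the member. Gm9866 (chromosome 12, 27050950 to 27160633, minus strand), 181941 bases from Sox11, was at 15.8 and 14.3 TPM, and A330102I10Rik (chromosome 13, 29014399 to 29040336, plus strand), 60686 bases from Sox4, at 11.95 and 18.1 TPM. Sox11 and Sox4, factors of young neurons, were at 95.6 ± 0.700 and 120 ± 7.27 TPM. The libraries were nearly equal for Gm9866 and apart for A330102I10Rik.

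Gm28175 and Gm29260 both have Pou3f3, an upper layer factor gene at 50.1 ± 0.566 TPM, as nearest coding gene, at 433913 and 913960 bases. Gm28175 was at 4.61 and 8.45 TPM, and Gm29260 at 1.73 and 1.52 TPM. Gm12063 (chromosome 11, 24076559 to 24077367, plus strand), 1497 bases from Bcl11a, a factor gene of cortical projection neurons, was at 3.51 and 4.30 TPM. 2700033N17Rik and G630016G05Rik lie 1605 and 1386 bases from Meis2, a homeobox gene at 93.4 ± 0.205 TPM, and were at 2.33 ± 0.134 and 1.45 ± 0.516 TPM. Gm39244, across Zfhx3, a zinc finger homeobox gene at 2.83 ± 0.0212 TPM, was at 1.83 ± 0.537 TPM. All of these members except Gm39244 were far below their factor.

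Detected members were built differently from the rest. A single exon was the only structure annotated for 19.5% of detected members and for 4.49% of undetected ones. For named lincRNA genes these shares were 15.1% and 3.99%. Members had a median spliced length of 1304 bases when detected and 884 when not. Detected members had a median of 2 annotated transcripts and undetected ones 1. Of the 154 detected members with several transcripts, 115 (74.7%) had the same dominant transcript, the one with the highest TPM, in both libraries, against 88.1% of detected coding genes. By the second table's values the number was 122, and 93 had 1 dominant transcript across both libraries and both tables.

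Isoform use differed in kind between the leading members. One transcript of 2900097C17Rik took 95.6% ± 1.51 of its level, one of C230004F18Rik 84.5% ± 0.389 and one of 1700020I14Rik 81.3% ± 0.0141 (IsoPct, the authors' percent of a gene's TPM). The levels of Gm3764 and 3110039I08Rik were divided among many transcripts. The leading transcript of Gm3764, of 11 annotated, took 19.8% ± 0.679, and that of 3110039I08Rik, of 48, took 24.3% ± 2.51. A retained-intron transcript of 3110039I08Rik followed at 23.5% ± 1.13 and was the first one in replicate 1, at 22.7% against 22.6%.

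Promoters of detected members held more CpG than those of the rest. RefSeq promoter sequences were matched for 98 of 266 detected members and 1414 of 5191 others, where the RefSeq start lay within 500 bases of the dominant transcript's start, so most members are not covered. The median ratio of observed to expected CpG was 0.613 in detected members, 0.240 in the others and 0.787 in detected coding genes. It was 0.763 in detected named lincRNA genes (26 of 73 matched) and 0.216 in undetected coding genes. A ratio of at least 0.6 was found in 51.0% of detected members, 10.8% of the others and 77.0% of detected coding genes. The share was 84.6% in detected named lincRNA genes, 13.2% in undetected coding genes and 35.8% in all 32851 promoters. Of the promoters printed above, 1110038B12Rik had a ratio of 0.929, 1700020I14Rik 0.801, C130071C03Rik 0.492 and Gm17750 0.209. Gm17750 and 1110038B12Rik, with the lowest and highest ratio of the 4, were nearly equal in level.

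**Figure D3:**
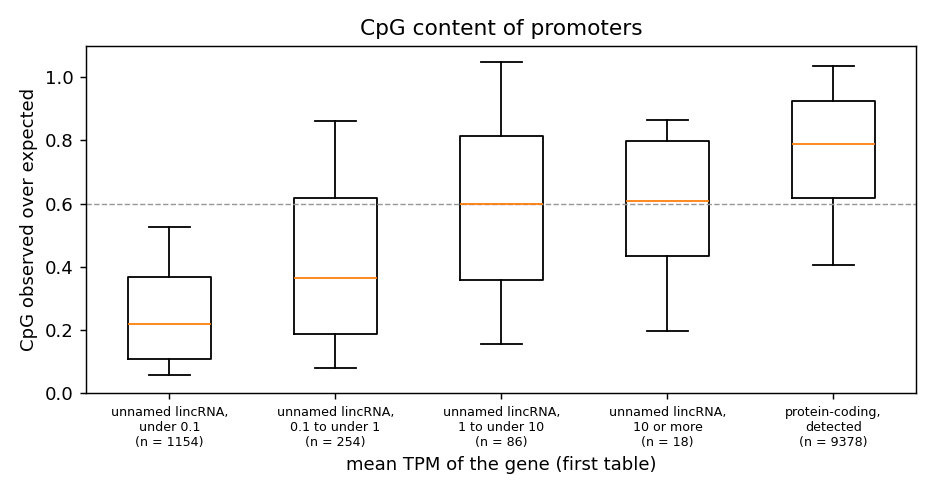
Observed over expected CpG in promoters (vertical axis) of unnamed lincRNA genes in 4 ranges of mean TPM, and of detected protein-coding genes. Boxes span the quartiles with the median as a line, whiskers reach the 10th and 90th percentiles, and the dashed line marks 0.6. Medians are 0.220 at under 0.1 TPM, 0.365 from 0.1 to under 1 TPM, 0.60 from 1 to under 10 TPM and 0.607 at 10 TPM or more.

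Motifs were searched as exact letters on both strands of the same windows. GGGCGG, the core of the GC box, occurred in 50% of the detected members' promoters, 13.5% of the others' and 35.7% of all promoters. TATAAA, the core of the TATA box, occurred in 15.3%, 16.9% and 13.6%. CCAAT occurred in 46.9%, 37.9% and 37.4%. CAGATG, an E box, occurred in 11.2%, 22.6% and 17.2%. A match is a description of the letters and not a binding site, and GGGCGG contains a CG and so follows CpG content.

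Between the libraries the members were on balance slightly higher in replicate 2. Over the 302 members whose mean TPM was 1 or more, 220 (72.8%) were higher in replicate 2, with a median log2 ratio of 0.17. By the same criterion 65.6% of all annotated genes and 64.8% of coding genes were higher in replicate 2. The median was 0.14 in named lincRNA genes, 0.52 in TEC genes, 0.06 in coding genes and 0.07 over all genes. Transcripts of the retained-intron type took 3.63% of counts in replicate 1 and 4.42% in replicate 2, and TEC genes 0.234% and 0.378%. The part of these values, and of the blood and choroid plexus markers given above, in the members' ratios was not tested. The members' median was 0.08 with TPM rescaled by the spike-ins, 0.32 in the second table and 0.03 over all members with at least 1 count in both libraries.

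**Figure D4:**
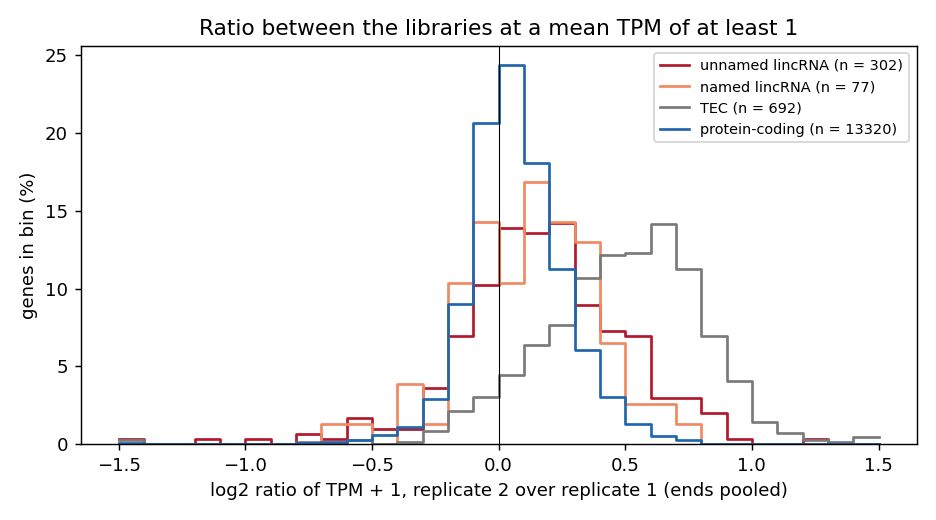
Share of genes (vertical axis, %) by log2 ratio of TPM + 1, replicate 2 over replicate 1 (horizontal axis, bins of 0.1, ends pooled), for genes whose mean TPM was 1 or more in 4 classes. The curve of the 302 unnamed lincRNA genes has its median at 0.17, between those of coding genes (0.06) and TEC genes (0.52).

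Few members differed past counting error and size. Each gene's rounded counts were compared by an exact binomial test (two-sided), adjusted by Benjamini-Hochberg over the 18492 genes whose counts summed to 20 or more. The test called a gene at an adjusted p under 0.05 and a log2 count ratio of at least 1 in size. It compares these libraries, not conditions. Of 506 members tested, 13 were called higher in replicate 2 (2.57%, against 2.38% of all genes tested) and 4 lower (0.791%, against 0.492%). Both shares were near those of all genes, but the classes differed. Of the 441 genes called higher, 298 were TEC genes. Called higher were 21.4% of 1393 TEC genes, 1.03% of 97 named lincRNA genes and 0.306% of 14688 coding genes. Called lower were 0%, 1.03% and 0.422% of these classes. The members' shares were above those of coding genes, but the classes were not compared at equal counts. Without the size criterion, 59 members were higher (11.7%, against 12.7% of all genes tested) and 5 lower (0.988%, against 11.3%). Such calls depend on the count, since a smaller difference passes at a higher count.

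The called members whose mean TPM was 1 or more had at most 115 counts in a library. Gm42518 (chromosome 5, 108364037 to 108364974, minus strand) had 8 counts in replicate 1 and 27 in replicate 2, a ratio of 3.36 (95% interval 1.48 to 8.55, adjusted p = 0.0118 by the exact test). Gm47270 had 10 and 29 counts, a ratio of 2.88 (1.37 to 6.63). Gm35501 had 10 and 27 counts, a ratio of 2.69 (1.26 to 6.22). Gm10287, a single-exon transcript with 54 and 115 counts, had a ratio of 2.12 (1.52 to 2.98), and 6030443J06Rik, which overlaps Lhfpl3 on the same strand, had 37 and 76 counts and a ratio of 2.04 (1.36 to 3.11). In the second table the libraries differed by less for some of these: Gm47270 was at 1.37 and 1.83 TPM in replicates 1 and 2, 6030443J06Rik at 4.16 and 6.02 TPM, and Gm10287 at 1.51 and 2.84 TPM, all under 2-fold. Gm42518 was at 0.993 and 2.36 TPM there and Gm35501 at 1.67 and 4.34 TPM. Gm49207, the near copy of an Ahsa1 transcript, was the only one lower, at 10.8 and 5.24 TPM with a ratio of 0.445 (0.236 to 0.808), and the second table listed it at 0 in both libraries.

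The tables differed for many members. The second table was made from read files and the first from aligned reads, per the deposited file descriptions. In the second table, 631 members reached a TPM of 1 in both libraries. Of these 256 were also detected in the first table, 10 were detected only in the first and 375 only in the second. For 790 members and 18993 genes in all, the tables were compared on the log2(TPM + 1) scale. The median shift of all detected genes, a log2 ratio of 0.53, was removed. At least 4-fold higher in the second table were 64 members (8.10%, against 1.7% of all genes compared), and at least 4-fold lower were 7 (0.886%, against 3.09%).

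Members detected only in the second table summed to 1362 TPM there in replicate 1 and 2169 TPM in replicate 2. Gm26905 (chromosome 8, 58171435 to 58298866, plus strand) was at 0.02 TPM (replicate 1) and 0.04 TPM (replicate 2) in the first table but at 84.4 and 164 TPM in the second. Gm47408 (chromosome 13, 10700161 to 10830778, plus strand) was at 0 and 0.11 TPM against 77.4 and 134 TPM. Gm47221 (chromosome 10, 103512928 to 103571685, plus strand) was at 0.02 and 0.15 TPM against 33.1 and 72.7 TPM. Gm35419 (chromosome 14, 62113120 to 62171126, minus strand) had no counts in the first table and 30.4 and 61.8 TPM in the second.

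Those 4 genes resembled other transcripts. The share of 31-base words found in another gene was 96.1% for Gm26905, 90.7% for Gm47221, 80.1% for Gm47408 and 22.7% for Gm35419, and Gm47221 was 99.0% identical to Gm26905 over its whole length. Over the groups, the median share was 2.70% for members detected in both tables and 55.1% for the 10 in the first table only. It was 7.49% for the 375 in the second only and 0.160% for members in neither. More than 50% of words were shared in 5.47%, 60%, 11.7% and 16.5% of the members of these groups, in that order. Beside Gm10076 and Gm49207, the members most reduced in the second table were Gm10479 (chromosome 12, 19292813 to 19301264, plus strand), at 3.26 and 4.72 TPM against 0 in both libraries, and Gm5914 (chromosome 8, 105624336 to 105637485, minus strand), at 7.07 and 7.42 TPM against 0.691 and 2.11 TPM. Gm5914 overlaps Ctcf on the other strand and Agrp on its own.

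**Figure D5:**
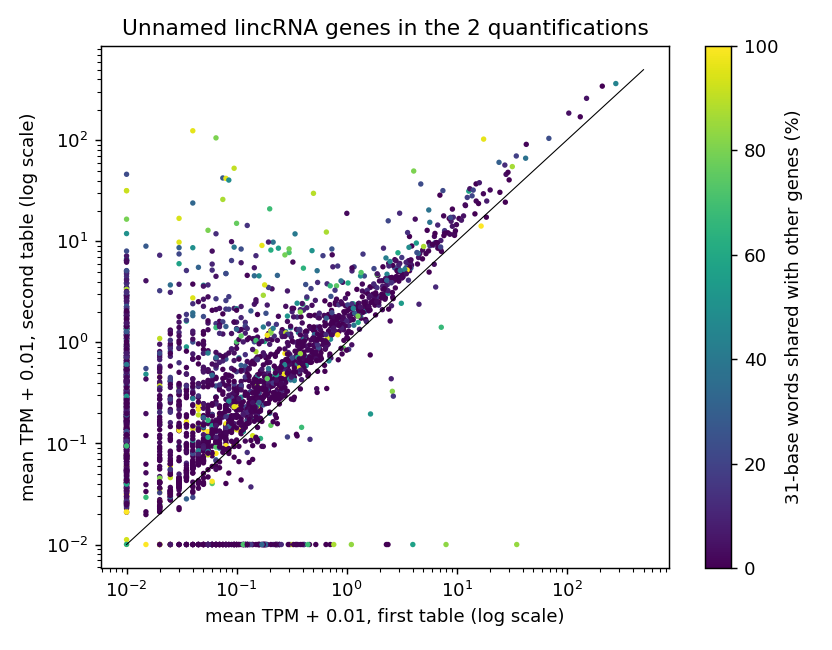
Mean TPM + 0.01 of unnamed lincRNA genes in the first table (horizontal axis, log scale) and the second (vertical axis, log scale), coloured by the share of 31-base words found in other genes (%), with the line of equal values. Most genes above 10 TPM in the first table lie just above the line, while Gm26905 and Gm47408, at under 0.1 TPM in the first table, lie above 100 in the second.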

How the data were processed

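Per the labels' protocols, total RNA was sequenced with spike-ins for stranded libraries depleted of ribosomal RNA. Assembly mm10 and GENCODE M21 are named in the deposited file descriptions. Which aligner and quantifiers were used is not given in the sources used here, and neither are versions. Per the file headers, the authors' gene and transcript tables (the first table) give expected counts, TPM, a posterior standard deviation of the count and the percent of a gene's TPM held by each transcript. The other deposited transcript table (the second table) gives estimated counts and TPM, summed here per gene. Spike-ins and entries without a gene identifier stayed out of gene totals. CAST/EiJ variants were not modelled.

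Expected counts were rounded for the exact binomial test with TMM library sizes from edgeR 4.0.16 (R 4.3.3); DESeq2 1.42.0 size factors were an alternative. On simulated counts for this comparison the test recovered 200 of 200 genes changed 4-fold, with 18471 tested. Noise was Poisson only, and the changed genes were drawn only above a mean count that most called members did not reach. Recovery of smaller changes, or at such low counts, was not simulated. Intervals of count ratios are exact (95%). Shared words came from all annotated transcripts, and best matches from blastn 2.17.0.

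Named were the 20 most abundant members; up to 5 called members each way with a mean TPM of 1 or more; the 4 most changed between tables in each direction; the 6 most abundant opposite-strand neighbours of coding genes; up to 10 members beside listed factors; and the 5 leading multi-transcript members and miRNA hosts. The members and lists were chosen with earlier results of these data known. Alternatives were the other table, other thresholds, pseudocounts, scalings and filters, and each library alone.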

Additional observations from a re-analysis of the deposited data

How the results depend on the processing

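No paired analysis was possible because the series has 1 group of 2 libraries. The number of detected members was 631 in the second table, 395 at a TPM of 0.5 and 175 at a TPM of 2; with 1 library alone it ranged from 290 to 325. The members' share of counts was 0.396% in the mean, 0.589% in the second table and 4.50% with Gm26917 and Gm42418 included, and ranged from 0.375% to 0.416% over single libraries. The median log2 ratio of 0.17 kept its sign in all 5 alternatives: 0.22 with a pseudocount of 0.1, 0.16 with TMM-scaled counts, 0.32 in the second table, 0.030 with at least 1 count in both libraries and 0.077 with spike-in rescaling. Members called higher numbered 13, and 12 to 17 under the other scalings and count filters; the second table gave 67 of 997 tested. Members called lower numbered 4, with 8 at a summed count of at least 10 and 1 in the second table. The share of all genes called was not computed under these alternatives, so whether members stood apart from other genes there cannot be said. The dominant transcript was shared by 115 members, by 122 in the second table and by 84 of 111 at a TPM of at least 2. Of 44 named members, 39 were higher in the second table, 32 of them by over 1.5 times, and 5 were lower, 4 by over 1.5 times. The second table was higher over all detected genes by a median log2 of 0.53. Relative to that shift, on the log2(TPM + 1) scale, 7 named members were over 1.5 times higher and 5 over 1.5 times lower. The cause of the differences between the tables was not tested. With 2 libraries and 1 group, depth limits members at 0 counts, and the test covers counting error only.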

Other observations

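Clone names of the RIKEN collection begin with a code for the cDNA library, and several of the codes, 1700 among them, belong to testis libraries. This grouping was made after the values were seen and was not tested. Of the 623 members with a testis code, 15 were detected (2.41%), against 90 of the 536 other Rik members (16.8%). With the code 1700, 9 of 224 members were detected. The abundant 1700020I14Rik has such a code, so a code does not fix where a gene is transcribed.

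Several detected members hold a long open reading frame. In the dominant transcripts of the 266 detected members the longest frame had a median of 71 codons, and 59 had at least 100 codons. The longest were in Gm5165 (667 codons, 4.53 TPM in replicate 1 and 4.16 TPM in replicate 2), Gm43305 (561 codons, in a retained-intron transcript, 3.66 and 5.77 TPM) and Gm42047 (393 codons, 1.24 and 1.45 TPM). RefSeq lists 57 members as protein-coding, of which 11 were detected, Gm5165 and 1810058I24Rik among them. Frame length does not show translation.

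On chromosome 7, in the region of Ube3a and Snrpn, 6 of 8 members were detected. The 6 detected members lie on the minus strand, between 60915550 and 62209479. B230209E15Rik was at 18.5 TPM (replicate 1) and 16.5 TPM (replicate 2). The other 5 were higher in replicate 2: A330076H08Rik at 6.75 and 11.5 TPM, A230057D06Rik at 6.90 and 10.8 TPM, Gm9801 at 5.55 and 9.68 TPM, Gm44644 at 2.01 and 4.36 TPM, and A230006K03Rik at 2.33 and 3.72 TPM. A330076H08Rik and A230057D06Rik are also among the miRNA hosts counted above. The window was chosen after the values were seen.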
